A study of Mus musculus with 3 samples.

Results

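Angptl4, Pdk4, Cpt1a, Plin2, Lpin1, Ppargc1a, Acadm and Glul are 8 genes of fatty acid oxidation and of the fasting response. They were taken by name from the RNA-seq table of mpkCCD cells, as 8 of 51803 gene symbols. All 8 were over 0.3 FPKM (a sequencing count per transcript length and library size) in at least 1 library, as were 15438 symbols in all. The mpkCCD line is a mouse kidney collecting duct line, here re-cloned for high Aqp2 expression, and served as a model of the principal cell. The study asked which genes change when the glucocorticoid receptor is knocked down in these cells. The shCtrl cells carried a non-target control hairpin, and the shGR1 and shGR2 cells carried 2 different hairpins against the receptor. All of these are stable lentiviral lines selected with puromycin, so each is a selected population and the hairpin and the line cannot be told apart. Cells of passages 18 to 32 were grown on membrane supports. Serum and the supplements other than dexamethasone, a ligand of the receptor, were withdrawn, and the cells received vehicle without the vasopressin analog dDAVP. With 1 library per line there were 3 libraries. The difference of 1 line from shCtrl therefore has no replicate check, and each SD of a log2 ratio describes how far shGR1 and shGR2 lay apart.

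During fasting, the glucocorticoid receptor and the fatty acid receptors of the PPAR family turn on genes that move a tissue from glucose to fatty acids as fuel. Long-chain fatty acids reach the mitochondrion as carnitine esters, are shortened by acyl-CoA dehydrogenases, and spare pyruvate when the pyruvate dehydrogenase kinases switch off the pyruvate dehydrogenase complex. Surplus fatty acids are kept as triglyceride in lipid droplets. These steps are best known from liver, muscle and fat, and in the kidney they are most active in the proximal tubule.

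The targeted gene Nr3c1, which encodes the receptor, was at 30.2 FPKM in shCtrl, 4.41 FPKM in shGR1 and 9.13 FPKM in shGR2. Of 8 well-known target genes of the receptor, 6 were lower and 2 were higher in both lines, with a median log2 ratio of -2.01. The principal cell markers were expressed in 8 of 10 cases, with Aqp2 at 9.55 FPKM in shCtrl, 0.751 FPKM in shGR1 and 2.14 FPKM in shGR2, while Scnn1b and Elf5 stayed under 0.3 FPKM. Of these 8 markers 6 were lower in both lines, 1 was higher (Aqp3) and 1 was split (Aqp4). Their summed level was 311 FPKM in shCtrl, 92.0 FPKM in shGR1 and 107 FPKM in shGR2, of which Scnn1a made up 168, 21.7 and 27.2 FPKM. Of 7 intercalated cell markers 3 were expressed (Atp6v1b1, Rhcg and Car2), all lower in both lines. The part of either marker list in the differences of the 8 genes was not tested. The median of the smallest FPKM × kb values gave 0.0329, 0.0309 and 0.0298 per fragment in shCtrl, shGR1 and shGR2. These values were taken under a fixed limit shared by the libraries, so they cannot show that the libraries were of like depth. The estimate is rough and is used only to say how many fragments stood behind a value.

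The 8 genes did not move as a block. Angptl4, Ppargc1a, Lpin1 and Cpt1a were higher than in shCtrl in both knockdown lines, and Acadm, Glul, Pdk4 and Plin2 were lower in both, although Plin2 was not when the medians were centred, the values quantile-normalized or the length trend removed. A ratio over 1 in both lines was found for 31.8% of the 15438 expressed genes and a ratio under 1 for 43.8%, so 4 of 8 in each direction is near that background. Angptl4 and Ppargc1a were at least 2-fold higher in both lines, against 2.54% of expressed genes, and 0 of the 8 were at least 2-fold lower, against 3.66%. Ppargc1a was at 0.176 FPKM in shCtrl and counted as expressed only through the knockdown libraries, and 27.5% of the 981 genes at or under 0.3 FPKM in shCtrl were at least 2-fold higher, so the 2.54% is no background for it. The median log2 ratio of the 8 genes was 0.04, beside -0.05 for all expressed genes. A bulk library cannot tell fewer cells that make a transcript from less of it per cell, and this holds for every difference given here.

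**Figure D1:**
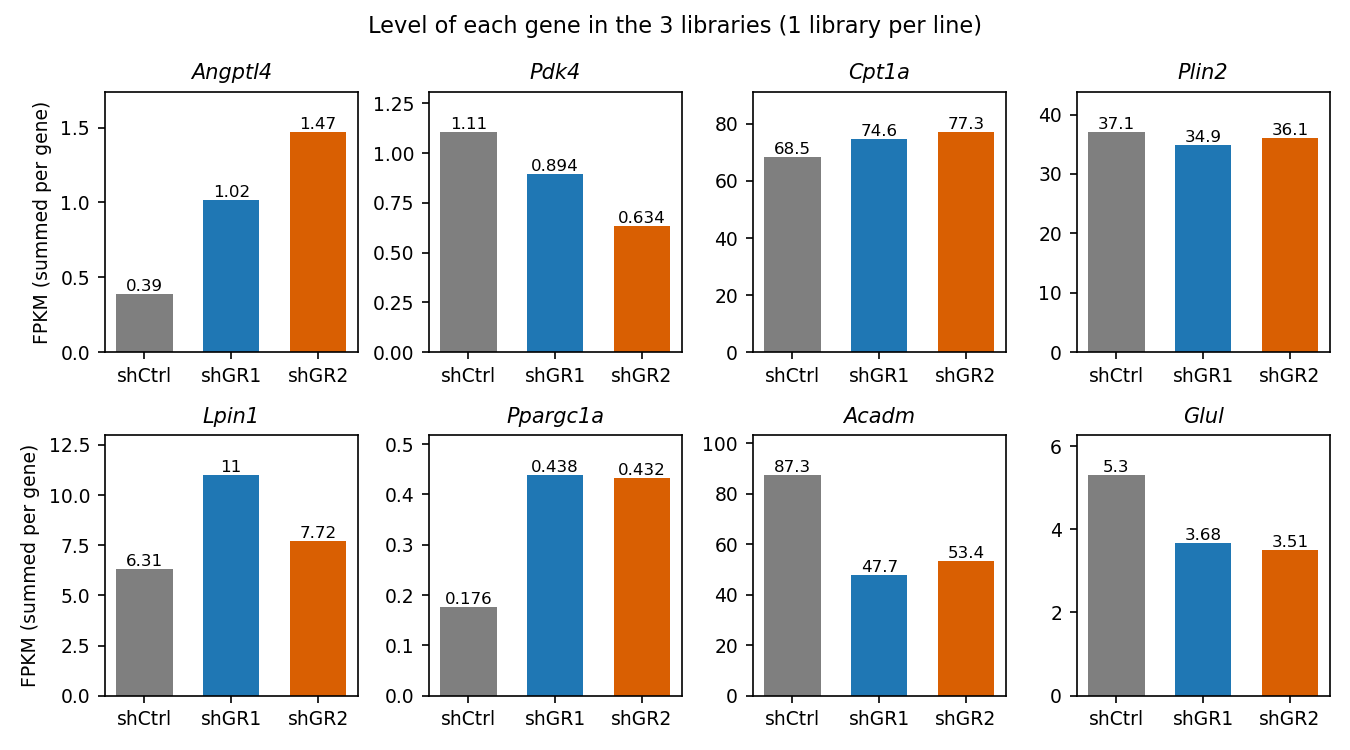
FPKM summed per gene (y axis, from 0, a separate scale for each gene) in the shCtrl, shGR1 and shGR2 libraries, with 1 bar per library and no error bar because each line has 1 library. Acadm was lower in both knockdown lines, at 47.7 and 53.4 FPKM against 87.3 FPKM, and Angptl4 was higher in both, at 1.02 and 1.47 FPKM against 0.390 FPKM.

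The limma test of the knockdown lines against shCtrl, which had 1 residual degree of freedom, called 0 of 15438 genes at an adjusted p under 0.05, which is 0% of them and includes none of the 8. At an unadjusted p under 0.05 it gave 699 higher genes, or 4.53%, and 1458 lower genes, or 9.44%. Of the 8 genes, Angptl4 was among the higher and Acadm among the lower. The directions given here are therefore those of the ratio in each line, and no change of the 8 genes passed the test.

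FPKM is a level per length of transcript, so the 8 genes could be ordered by it. Acadm was the highest at 87.3 FPKM, followed by Cpt1a, Plin2, Lpin1, Glul, Pdk4, Angptl4 and, at 0.176 FPKM, Ppargc1a. In the knockdown cells Cpt1a stood above Acadm and Angptl4 above Pdk4, and the rest of the order was that of shCtrl. The ranges of neighbouring genes over shGR1 and shGR2 did not overlap at any step of that order. The summed level of the 8 genes was 206 FPKM in shCtrl, 174 FPKM in shGR1 and 181 FPKM in shGR2, which mostly followed Acadm.

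**Figure D2:**
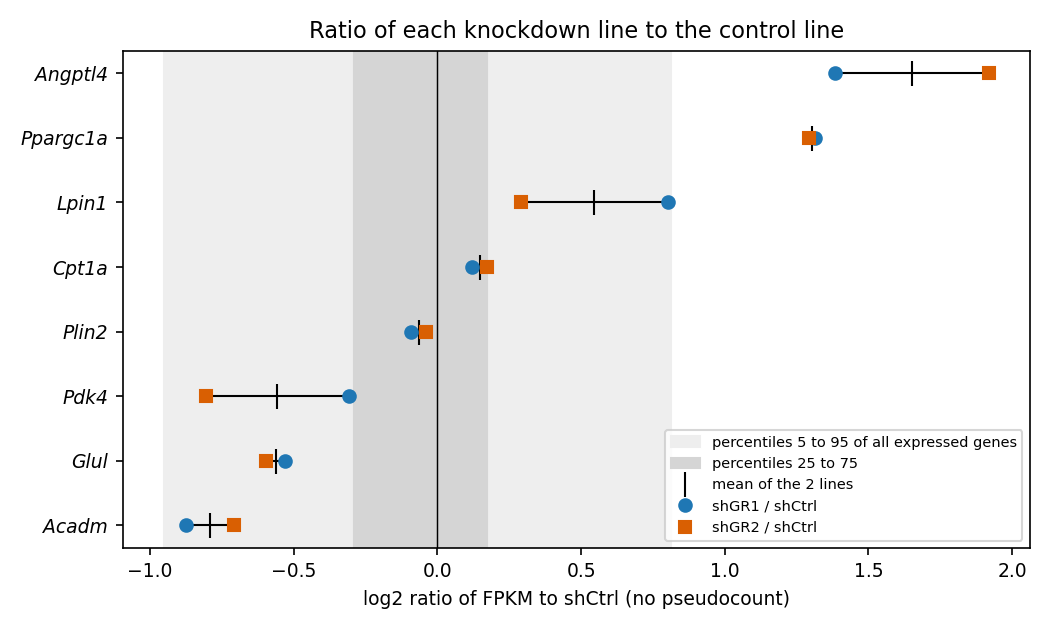
log2 ratio of FPKM to shCtrl (x axis) for each of the 8 genes, with a circle for shGR1, a square for shGR2 and a tick at their mean, over grey bands for the middle of all expressed genes. Angptl4 and Ppargc1a lie beyond percentile 95 of all expressed genes, which is at 0.81, although Ppargc1a counted as expressed only through the libraries in which it is high, and Cpt1a and Plin2 lie inside the band of percentiles 25 to 75, from -0.29 to 0.17.

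Ppargc1a encodes PGC-1α, a transcriptional co-activator that works with PPARα and other nuclear receptors to raise mitochondrial genes in fasting. It lies on the minus strand at chr5:51454250-51567726 (GRCm38, as all positions here). Its level was 0.176 FPKM in shCtrl, 0.438 FPKM in shGR1 and 0.432 FPKM in shGR2. The knockdown libraries were thus above the control and nearly equal, with a mean log2 ratio of 1.30 ± 0.01 (SD, n = 2). The limma adjusted p was 0.435. Ppargc1a passed the 0.3 FPKM limit only through the knockdown libraries. Among the 981 genes at 0.3 FPKM or less in shCtrl, which by that limit could not be lower in both lines, 55.2% were higher in both lines and 27.5% were at least 2-fold higher.

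The close match of the lines did not extend to the transcripts of Ppargc1a. The longest coding transcript, of 6464 nt, measured 0.157 FPKM in shCtrl, 0.182 FPKM in shGR1 and 0.373 FPKM in shGR2, so that its shGR1 value was close to the control and its shGR2 value above it. In shGR1, 0.219 of the 0.438 FPKM came from a coding transcript of 488 nt, which rests on about 3 fragments and was listed at 0 in shCtrl. The log2 ratio was 0.73 for the 6464 nt transcript alone and 0.82 with transcripts weighted by their length, and under both choices Ppargc1a was no longer 2-fold higher in both lines. In total about 33, 45 and 87 fragments stood behind the gene in the 3 libraries.

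The partners and relatives of PGC-1α showed no shared direction. Ppargc1b, the gene of the related co-activator PGC-1β, was at 1.56 FPKM in shCtrl, 0.619 FPKM in shGR1 and 0.593 FPKM in shGR2. It was lower in both lines, opposite to Ppargc1a, with a log2 ratio of -1.36 ± 0.04 (SD, n = 2), and was among the lower genes at an unadjusted p under 0.05 in limma. Pprc1, the third gene of the family, was at 22.1, 22.1 and 24.3 FPKM and was split between the lines, or higher in both with the medians centred or quantile normalization. Ppara stayed between 0.0276 and 0.0937 FPKM and Pparg between 0.0710 and 0.183 FPKM, both under 0.3 FPKM in each library. Ppard, at 10.4, 11.1 and 10.4 FPKM, was the 1 PPAR gene that was expressed, and its lines differed from shCtrl in opposite directions, or were both higher with the medians centred, quantile normalization or the length trend removed. Over the receptors, partners and co-regulators of the PPAR pathway, 6 of 15 expressed genes were higher and 7 were lower in both lines, with a median log2 ratio of 0.04. The balance depended on the scaling. The counts were 8 higher and 6 lower with the medians centred, 8 and 4 with quantile normalization, and 7 and 6 with the length trend removed. Esrra, the estrogen-related receptor through which PGC-1α raises oxidative genes, stood at 21.7 FPKM in shCtrl, 17.0 FPKM in shGR1 and 17.7 FPKM in shGR2.

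Angptl4 encodes a secreted protein that inhibits lipoprotein lipase and so leaves circulating triglyceride for other tissues in fasting. It lies at chr17:33773750-33781830 on the minus strand. Its level was 0.390 FPKM in shCtrl, 1.02 FPKM in shGR1 and 1.47 FPKM in shGR2. Both knockdown libraries were above the control, with log2 ratios of 1.38 and 1.92 and a mean of 1.65 ± 0.38 (SD, n = 2). This was the highest ratio of the 8 genes, and 98.6% of the expressed genes with a ratio in both lines had a lower one. In limma the difference on the log2(FPKM + 0.1) scale was 1.44 ± 0.41 (SE), with an unadjusted p of 0.0348 and an adjusted p of 0.324.

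The level of Angptl4 was low in all libraries, with about 31, 92 and 98 fragments behind it. Of the 2039 genes over 0.3 and up to 1 FPKM in shCtrl, 3.14% were at least 2-fold higher in both lines, and the median SD between the lines was 0.37 on the log2 scale. The coding transcript of 3053 nt was at 0.244, 0.815 and 0.596 FPKM, higher in both lines by a mean log2 ratio of 1.51 ± 0.32 (SD, n = 2). In shGR2, a 575 nt processed transcript added 0.309 FPKM from about 6 fragments, and a 1859 nt transcript marked for nonsense-mediated decay was highest there, at 0.466 FPKM against 0.146 FPKM in shCtrl and 0.178 FPKM in shGR1. The order of shGR1 and shGR2 was thus reversed between the coding transcript and the gene total, whereas both stood above shCtrl in each.

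Angptl4 is abundant in fat cells and fibroblasts also express it, so the markers of these cells were read beside it. The 6 adipocyte markers, 3 of them expressed, summed to 2.58 FPKM in shCtrl, 2.14 FPKM in shGR1 and 3.33 FPKM in shGR2, with Adipoq lower in both lines, at 0.301, 0.0884 and 0.276 FPKM, Cidec higher in both, at 0.257, 0.388 and 0.259 FPKM, and Fabp4 split, at 1.75, 1.53 and 2.41 FPKM. The 6 fibroblast markers, 4 of them expressed, summed to 8.69, 5.73 and 12.7 FPKM. Both sums were below shCtrl in shGR1 and above it in shGR2, and most of the adipocyte sum was Fabp4. The part of these cells in the Angptl4 values was not tested in either line.

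Of 11 genes of the lipase system on which Angptl4 acts, 6 were expressed. Lpl, the gene of lipoprotein lipase, was at 0.272 FPKM in shCtrl, 0.233 FPKM in shGR1 and 0.381 FPKM in shGR2, on either side of the control. The related gene Angptl8 stayed under 0.3 FPKM in each library, at up to 0.0718 FPKM. Lipg, which encodes endothelial lipase, was at 8.77, 16.5 and 12.1 FPKM and was higher in both lines, with a log2 ratio of 0.69 ± 0.32 (SD, n = 2). Of the 6 expressed genes of this list, 2 were higher, 3 were lower and 1 was split, and 0 had an unadjusted p under 0.05 in limma.

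**Figure D3:**
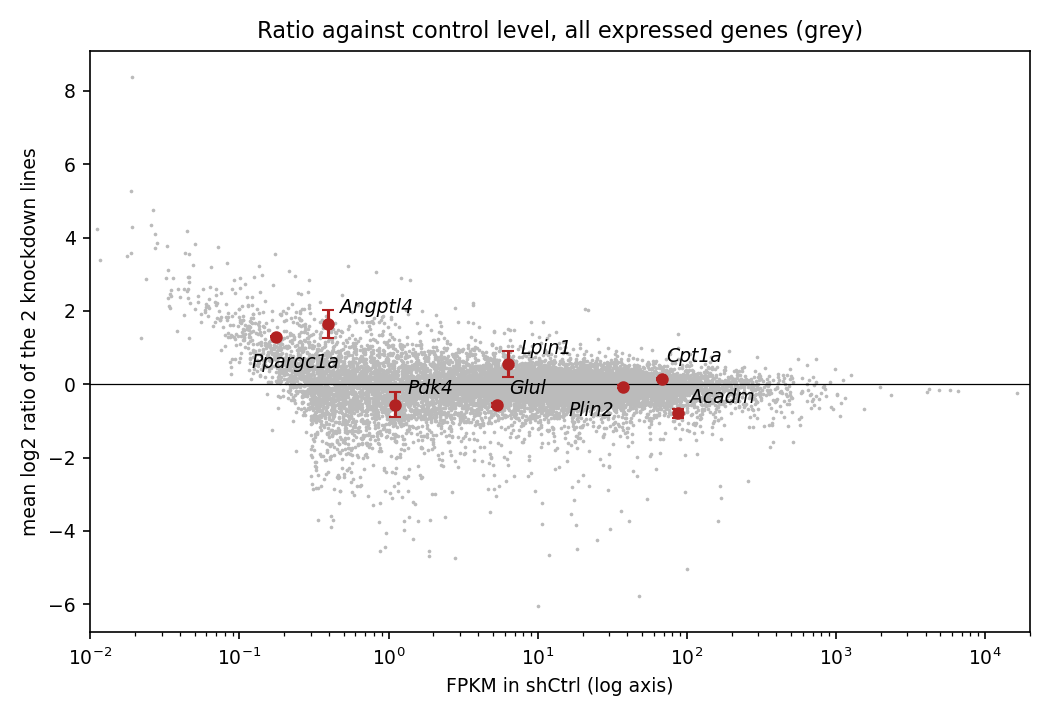
Mean log2 ratio of the knockdown lines to shCtrl (y axis) against FPKM in shCtrl (x axis, log scale) for all expressed genes with values above 0 (grey points) and the 8 genes (red points, bars are the SD of the lines). Ppargc1a at 0.176 FPKM and Angptl4 at 0.390 FPKM lie where ratios spread widely, and Acadm at 87.3 FPKM lies where the spread is narrow.

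Acadm encodes medium-chain acyl-CoA dehydrogenase, the mitochondrial enzyme that takes the first step of β-oxidation on medium-chain fatty acids. It lies at chr3:153922357-153944632 on the minus strand. Its level was 87.3 FPKM in shCtrl, 47.7 FPKM in shGR1 and 53.4 FPKM in shGR2. Both knockdown libraries were well below the control and near each other, with log2 ratios of -0.87 and -0.71 and a mean of -0.79 ± 0.12 (SD, n = 2). Of the expressed genes, 7.16% had a lower ratio. With about 4644, 2662 and 3075 fragments, Acadm was among the better measured of the 8 genes. The limma difference was -0.79 ± 0.12 (SE), with an unadjusted p of 0.00519 and an adjusted p of 0.269. With protein-coding transcripts only, the adjusted p of Acadm was 0.0228, the lowest in a range up to 0.411, and this was the only 1 of 12 other settings in which limma called any of the 8 genes.

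Most transcripts of Acadm shared its direction. The main coding transcript of 2047 nt, which held 77.8% of the level in shCtrl, was at 67.9, 35.9 and 39.7 FPKM, giving a ratio on the log2 scale of -0.85 ± 0.10 (SD, n = 2). The 7 retained-intron transcripts summed to 14.7 FPKM in shCtrl, 7.27 FPKM in shGR1 and 10.1 FPKM in shGR2. The transcript of 728 nt marked for nonsense-mediated decay was closest to the control, at 4.77, 4.17 and 3.66 FPKM. The split of reads between transcripts of 1 gene is an estimate of the quantifier, so these values are less certain than the gene total.

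The other acyl-CoA dehydrogenases lay closer to the control than Acadm did. Acads, for short chains, measured 22.2 FPKM in shCtrl, 20.9 FPKM in shGR1 and 18.9 FPKM in shGR2. Acadl, for long chains, was at 67.7, 64.2 and 63.9 FPKM, and Acadvl, for very long chains, was at 22.5, 20.3 and 18.7 FPKM. All of them were lower in both lines, with log2 ratios of -0.16, -0.08 and -0.21, except that Acadl was no longer lower in both after quantile normalization or removal of the length trend, and the difference between Acadm and these genes was not tested. Further lower genes were those of partner proteins of the pathway. Etfb, a subunit of the flavoprotein that takes electrons from the acyl-CoA dehydrogenases, measured 42.3 FPKM in shCtrl, 20.98 FPKM in shGR1 and 20.51 FPKM in shGR2, giving a ratio on the log2 scale of -1.03 ± 0.02 (SD, n = 2). The other subunit, Etfa, lay nearer the control, at 128, 106 and 107 FPKM with a log2 ratio of -0.26. Etfdh, of the same list, was not lower in both lines, at 31.4, 33.3 and 30.9 FPKM. Eci1, an isomerase for unsaturated fatty acids, was at 45.9, 27.2 and 27.3 FPKM, and Slc22a5, the carnitine transporter of the plasma membrane, at 9.98, 5.35 and 6.68 FPKM.

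Cpt1a encodes the liver form of carnitine palmitoyltransferase 1, the gate for entry of long-chain fatty acids into mitochondria. It has a single transcript in the table, of 4300 nt, and lies at chr19:3322334-3385733 on the plus strand. Its level was 68.5 FPKM in shCtrl, 74.6 FPKM in shGR1 and 77.3 FPKM in shGR2. The shGR1 and shGR2 values were slightly above the control, with a mean log2 ratio of 0.15 ± 0.04 (SD, n = 2). The limma adjusted p was 0.512, and 72.8% of expressed genes had a lower ratio. Cpt1a rested on about 8953, 10386 and 11159 fragments, the most of the 8 genes. The related genes were also higher in both lines at far lower levels. Cpt1b, the muscle form, was at 0.698, 1.27 and 1.19 FPKM with a log2 ratio of 0.81 ± 0.07 (SD, n = 2), and Cpt1c, the brain form, was at 2.37, 3.58 and 3.58 FPKM with a log2 ratio of 0.60. In neither case did the values of the knockdown lines reach down to the control.

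Over the list of mitochondrial β-oxidation and the carnitine shuttle, in which Acadm and Cpt1a were not counted, 26 of 27 genes were expressed. Of these, 6 were higher in both lines, 15 were lower and 5 were split. Decr1, among the higher ones, counted as expressed only through shGR2. For this and every other list count, the shares of all expressed genes were 31.8% higher and 43.8% lower. The median log2 ratio was -0.14, beside -0.05 for all expressed genes, and it was -0.06, beside 0.0016 for all expressed genes, when the trend of the ratio with transcript length was removed. At an unadjusted p under 0.05 limma gave 0 higher genes and 8 lower ones, beside 4.53% and 9.44% of all expressed genes, namely Slc25a20, Slc22a5, Acsl5, Hadh, Acaa2, Eci1, Etfa and Etfb. They encode carnitine carriers, an acyl-CoA synthetase, enzymes of the β-oxidation spiral and the electron acceptor of its first step. In the peroxisomal list 2 of 14 expressed genes were higher and 8 were lower in both lines, with a median of -0.12, which was -0.26 without shGR1 and -0.06 without shGR2. Ech1, an isomerase, was at 39.1 FPKM in shCtrl, 20.3 FPKM in shGR1 and 24.3 FPKM in shGR2, lower in both lines. No adjusted p in these lists was under 0.05 in limma.

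Pdk4 encodes a pyruvate dehydrogenase kinase that keeps pyruvate from oxidation, a classic target of glucocorticoids and PPARs in fasting muscle and liver. It lies at chr6:5483351-5496309 on the minus strand. Its level was 1.11 FPKM in shCtrl, 0.894 FPKM in shGR1 and 0.634 FPKM in shGR2. Values in both lines were below the control, but they differed from each other, with log2 ratios of -0.31 and -0.80 and a mean of -0.56 ± 0.35 (SD, n = 2). About 117, 96 and 74 fragments stood behind it, and the limma adjusted p was 0.605. The coding transcript of 3484 nt held nearly all of the level in each library.

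The other kinases of the complex were expressed at higher levels than Pdk4. Pdk2 was at 16.7 FPKM in shCtrl, 9.13 FPKM in shGR1 and 10.5 FPKM in shGR2. It was lower in both lines, with a log2 ratio of -0.77 ± 0.14 (SD, n = 2). Pdk1, at 114, 118 and 118 FPKM, and Pdk3, at 27.1, 23.7 and 24.7 FPKM, were near the control. Mpc1 and Mpc2, the subunits of the mitochondrial pyruvate carrier, were lower in both lines, at 19.7, 12.3 and 12.5 FPKM and at 17.2, 10.1 and 10.5 FPKM. In this list of pyruvate entry 10 of 13 expressed genes were lower and 2 were higher in both lines, with a median log2 ratio of -0.16. Of all expressed genes 43.8% were lower and 31.8% were higher. The count of lower genes in the list fell to 7 with the medians centred, quantile normalization or the length trend removed. Pdk2, Pdha1, Mpc1 and Mpc2, all lower, had an unadjusted p under 0.05 in limma, as had 9.44% of all expressed genes in that direction.

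**Figure D4:**
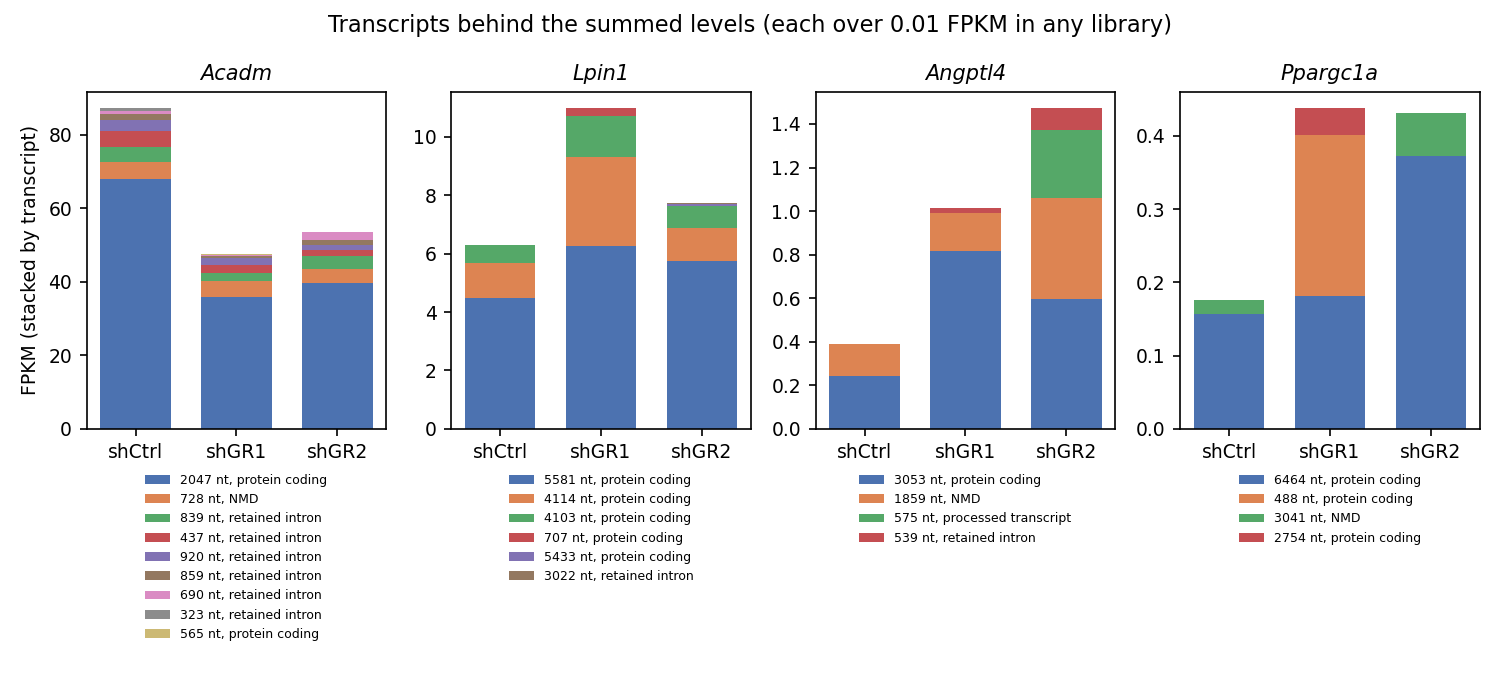
FPKM (y axis, from 0, a separate scale for each gene) of the transcripts of Acadm, Lpin1, Angptl4 and Ppargc1a in the shCtrl, shGR1 and shGR2 libraries, stacked and coloured by transcript, with length and type in the legend. In Ppargc1a the 488 nt transcript stands at 0.219 FPKM in shGR1 alone, and in Lpin1 the 4114 nt transcript is high in shGR1 at 3.06 FPKM.

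Lpin1 encodes lipin 1, a phosphatidate phosphatase of triglyceride synthesis that in mouse liver also acts with PGC-1α on PPARα target genes. It lies at chr12:16535669-16610966 on the minus strand. Its level was 6.31 FPKM in shCtrl, 11.0 FPKM in shGR1 and 7.72 FPKM in shGR2. The lines were both above the control, shGR1 more than shGR2, with log2 ratios of 0.80 and 0.29 and a mean of 0.55 ± 0.36 (SD, n = 2). The limma adjusted p was 0.478. The main transcript of 5581 nt was at 4.49, 6.26 and 5.75 FPKM, above the control in both lines with a log2 ratio of 0.42 ± 0.09 (SD, n = 2). A second coding transcript of 4114 nt was at 1.19 FPKM in shCtrl, 3.06 FPKM in shGR1 and 1.11 FPKM in shGR2, so its difference stood in shGR1 alone. The ratio of Lpin1 thus differed less between the lines in its main transcript than in the gene total.

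The relatives of Lpin1 were split in direction. Lpin2 was at 13.0 FPKM in shCtrl, 23.1 FPKM in shGR1 and 13.4 FPKM in shGR2, high in shGR1 only, with a log2 ratio of 0.44 ± 0.56 (SD, n = 2). Lpin3 was at 7.73, 5.19 and 5.04 FPKM, below the control in both lines, with a log2 ratio of -0.60 ± 0.03 (SD, n = 2). In the glycerolipid list 4 of 12 expressed genes were higher and 6 were lower in both lines, with a median of -0.06. Gpd1, which makes glycerol 3-phosphate, was the 1 higher gene at an unadjusted p under 0.05 in limma, at 11.4, 15.1 and 17.0 FPKM, and Lpin3 and Agpat2 were the lower ones.

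Plin2 encodes perilipin 2, which coats lipid droplets in most cell types. It lies at chr4:86648386-86670060 on the minus strand. Its level was 37.1 FPKM in shCtrl, 34.9 FPKM in shGR1 and 36.1 FPKM in shGR2. The values of the 3 libraries were close to each other, with a log2 ratio of -0.06 ± 0.04 (SD, n = 2) and a limma adjusted p of 0.781. Its direction depended on the processing, since the mean log2 ratio was above 0 for the main transcript alone and with the length trend removed. The main transcript of 1888 nt was at 33.1, 32.6 and 33.7 FPKM. The relative Plin3, which coats small droplets, was at 90.0, 61.1 and 60.4 FPKM and was lower in both lines, with a log2 ratio of -0.57 ± 0.01 (SD, n = 2). Plin4 was at 0.190, 0.435 and 0.372 FPKM, Plin1 stayed under 0.3 FPKM and Plin5 was listed at 0 in each library.

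In the lipid droplet list 5 of 13 expressed genes were higher and 6 were lower in both lines, with a median log2 ratio of -0.20. Plin4 and Cidec, among the higher ones, counted as expressed only through a knockdown library and so could not be lower in both lines. Over 1 FPKM, 3 genes of the list were higher. Dgat2, which forms triglyceride, was at 12.9 FPKM in shCtrl, 6.33 FPKM in shGR1 and 3.66 FPKM in shGR2, at least 2-fold lower in both lines. Its relative Dgat1 was at 18.9, 25.2 and 21.8 FPKM, above the control in both. Lipe, the gene of hormone-sensitive lipase, was at 8.03, 5.94 and 5.26 FPKM, and Lipa, that of the lysosomal lipase, was at 2.37, 4.83 and 3.09 FPKM.

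Glul encodes glutamine synthetase, which binds ammonia to glutamate and is induced by glucocorticoids in muscle and other tissues. It lies at chr1:153899944-153909723 on the plus strand. Its level was 5.30 FPKM in shCtrl, 3.68 FPKM in shGR1 and 3.51 FPKM in shGR2. Both knockdown libraries were below the control and near each other, with a log2 ratio of -0.56 ± 0.05 (SD, n = 2). The limma adjusted p was 0.377, and 11.7% of expressed genes had a lower ratio. A single coding transcript of 2792 nt carried the level, with about 450, 332 and 329 fragments. The microRNA gene Mir8114, which lies within Glul on the same strand, was listed at 6.71 FPKM in shGR2 and at 0 in the other libraries, and reads shared by the genes were not separated here.

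Glutamate metabolism was measured beside Glul. Glud1, the gene of glutamate dehydrogenase, was at 60.9 FPKM in shCtrl, 42.8 FPKM in shGR1 and 49.6 FPKM in shGR2, lower in both lines as was Glul. Of 11 expressed genes of glutamine and ammonia metabolism, 6 were lower and 1 was higher in both lines, with a median log2 ratio of -0.19.

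The genes of Acadm, Glul and Lpin1 were also read at their promoters. Acadm and Glul were chosen because they were lower in both lines with a small spread. Lpin1 was chosen as the 1 gene, of the 7 with a promoter window, that held a half-site of the glucocorticoid receptor. The windows hold 250 bases before and 50 bases after the start of the gene, from RefSeq on GRCm38.p6, and 7 of the 8 genes matched an entry, all but Angptl4. For Cpt1a the RefSeq start lay inside the gene span given above, with the window at chr19:3323051-3323350. Capitals mark the half-site of the glucocorticoid receptor (AGAACA or, on the other strand, TGTTCT) and that of the PPAR receptors (AGGTCA or TGACCT), each window is written 5′ to 3′ along its gene, and no marked sites overlap. Acadm is at chr3:153944594-153944893 (minus strand), Glul at chr1:153899679-153899978 (plus strand) and Lpin1 at chr12:16610917-16611216 (minus strand).
Acadm: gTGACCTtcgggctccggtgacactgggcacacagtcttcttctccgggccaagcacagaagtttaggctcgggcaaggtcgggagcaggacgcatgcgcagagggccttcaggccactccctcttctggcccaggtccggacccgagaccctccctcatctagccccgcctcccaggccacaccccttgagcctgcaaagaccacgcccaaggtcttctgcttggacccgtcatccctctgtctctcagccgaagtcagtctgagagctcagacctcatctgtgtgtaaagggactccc
Glul: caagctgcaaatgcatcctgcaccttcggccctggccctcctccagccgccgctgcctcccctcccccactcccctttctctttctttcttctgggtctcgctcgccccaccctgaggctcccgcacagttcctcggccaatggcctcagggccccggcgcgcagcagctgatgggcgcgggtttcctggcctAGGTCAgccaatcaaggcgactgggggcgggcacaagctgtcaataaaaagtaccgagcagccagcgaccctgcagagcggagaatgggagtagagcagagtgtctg
Lpin1: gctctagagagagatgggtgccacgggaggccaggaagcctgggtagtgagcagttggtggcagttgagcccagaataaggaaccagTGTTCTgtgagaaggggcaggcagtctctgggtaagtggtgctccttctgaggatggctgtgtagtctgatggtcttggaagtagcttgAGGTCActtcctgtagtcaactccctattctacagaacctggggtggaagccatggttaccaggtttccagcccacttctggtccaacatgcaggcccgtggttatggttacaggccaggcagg

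The PPAR half-site was found in 5 of the 7 promoters, those of Acadm, Glul, Lpin1, Cpt1a and Plin2, and in 16.3% of 32851 promoters of the same length. Among these genes Lpin1 and Cpt1a were higher and Acadm, Glul and, by a small margin that changed with the scaling, Plin2 were lower in both lines. The half-site of the glucocorticoid receptor was found in 1 of 7, that of Lpin1, and in 19.0% of all promoters. The full elements were in 0 of 7, namely the glucocorticoid response element (AGAACA, 3 bases of any kind, TGTTCT; 0.00913% of all promoters), the PPAR response element (AGGTCA, 1 base of any kind, AGGTCA; 0.0396%) and the cAMP response element (TGAC directly followed by GTCA; 1.79%). A full element contains its half-site. A match is a description of letters, not a bound site, and the window is short.

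The remaining lists of the fasting response were read in the same way. Of 20 genes named as PPAR targets or as induced by fasting, 15 were expressed, 3 of them higher and 8 lower in both lines, with a median log2 ratio of -0.30. That median was -0.15 without shGR1, where 7 genes were higher, and -0.50 without shGR2. Txnip, an inhibitor of glucose uptake and thioredoxin, was at 428 FPKM in shCtrl, 244 FPKM in shGR1 and 264 FPKM in shGR2, lower in both. Fgf21, the gene of a fasting hormone of the liver, was at 1.54, 2.70 and 2.44 FPKM, higher in both, as were Angptl4 and Ppargc1a. Pck1 and G6pc, the key genes of gluconeogenesis, stayed under 0.3 FPKM in each library. Of the 7 expressed genes of gluconeogenesis and ketone metabolism, 1 was higher and 5 were lower in both lines, with a median of -0.33, and Oxct1, which uses ketone bodies, was at 54.5, 38.6 and 38.5 FPKM. The higher one, Bdh2, was at 0.0933 FPKM in shCtrl and counted as expressed only through the knockdown libraries. In fatty acid synthesis, the opposing pathway, 4 of 11 expressed genes were higher and 5 were lower, with a median of 0.04. With the medians centred or quantile normalization, 6 genes of that list were higher and 4 were lower. Scd1, which desaturates fatty acids, was the higher one at an unadjusted p under 0.05 in limma, at 60.6, 90.2 and 78.1 FPKM, and Srebf1, a regulator of the pathway, the lower one at 55.3, 45.5 and 45.8 FPKM.

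Over all 171 listed genes other than the 8, 143 were expressed, of which 36 (25.2%) were higher and 79 (55.2%) were lower in both lines. This compares with 31.8% and 43.8% of all expressed genes, which were not matched to the lists for level. The lower share was 43.7% of genes over 1 and up to 10 FPKM in shCtrl and 50.1% of those over 10 FPKM. Among the higher listed genes, Decr1, Plin4, Cidec and Bdh2 counted as expressed only through a knockdown library. With quantile normalization, 45 of the listed genes were higher and 66 were lower, and the split over all expressed genes turned from 4904 higher and 6758 lower to 6172 higher and 5485 lower. At an unadjusted p under 0.05 limma gave 2 higher and 29 lower genes among the 143, beside 4.53% and 9.44% of all expressed genes, and 0 at an adjusted p under 0.05. The 4 higher genes of the 8 thus stood among lists in which more genes were lower than higher, as was so over all expressed genes in the main values.

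**Figure D5:**
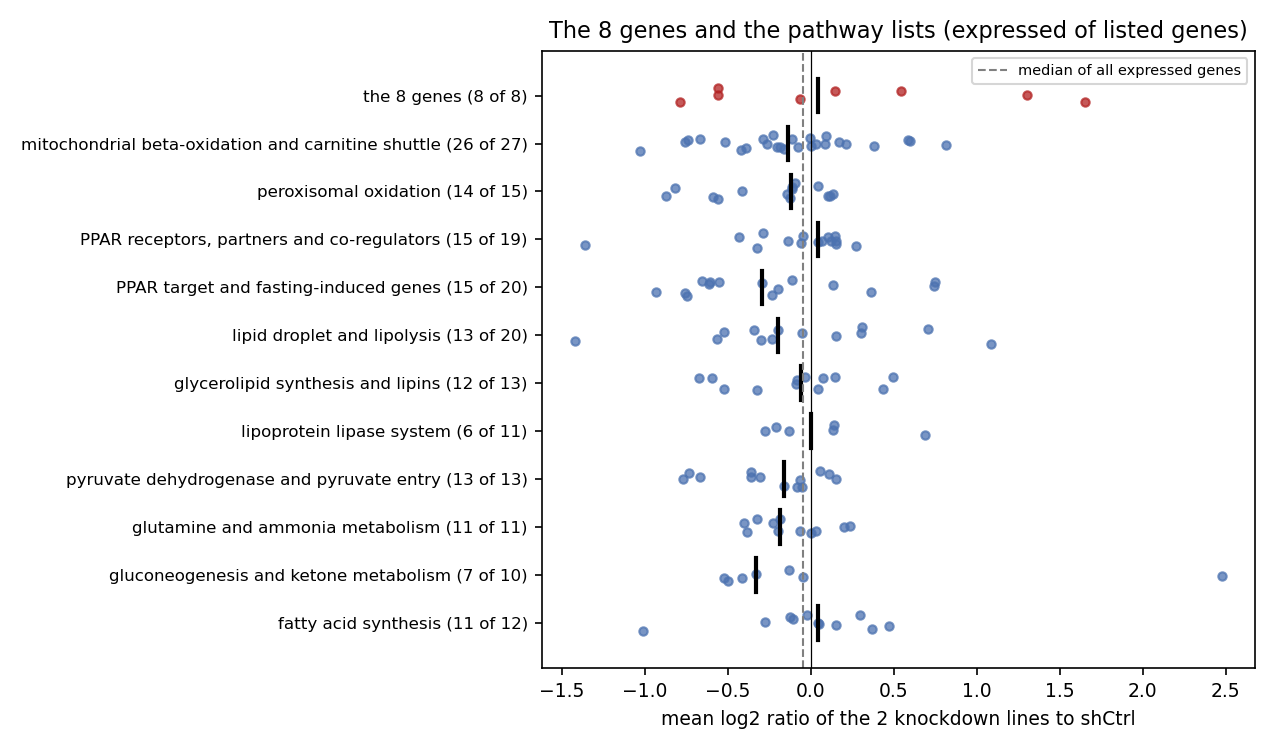
Mean log2 ratio of the knockdown lines to shCtrl (x axis) for each expressed gene (points) of the 8 genes (red) and of 11 pathway lists (blue), with the median of each list as a black bar and that of all expressed genes as a dashed line; points are spread vertically at random within a row for legibility. The 8 genes reach from -0.79 to 1.65 around a median of 0.04, and most list medians are below 0, down to -0.33.

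Each of the 8 genes was also set beside the expressed genes averaging 1 FPKM or more, in order of the distance between their pairs of log2 ratios in shGR1 and shGR2. With only 2 ratios per gene, likeness is common where the ratios are small. Within a distance of 0.25 there were 4327 genes for Plin2, 3241 for Cpt1a, 830 for Glul, 309 for Acadm, 300 for Lpin1 and 206 for Pdk4. There were 23 for Ppargc1a and 4 for Angptl4, the genes with the highest ratios. Ppargc1a, Angptl4 and Pdk4 averaged under 1 FPKM themselves, so genes of a like average level were left out of their counts. The small counts therefore do not show that such ratios are rare at that level. The nearest to Angptl4 were Gm13532, Fam167a and Ggt1, and the nearest to Ppargc1a were Col4a1, Limd2 and CT572999.1. The nearest to Acadm were Smim26, Gatsl3 and Tprgl, those to Glul were Atp7a, Prdx3 and Tapbp, and those to Pdk4 were Crebl2, Pitpnm3 and Tmsb4x. The nearest to Lpin1 were Smt3h2-ps4, Ckap2l and Zfp579, those to Cpt1a were Akap9, Tsr2 and Stk4, and those to Plin2 were Akap7, Lrp6 and Tcea1.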

How the data were processed

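RNA-seq of 3 mpkCCD libraries was analysed. The authors deposited FPKM per transcript for 128603 transcripts; the notes of the submitters list the tools HISAT2, Cufflinks 2.2.1, Cuffdiff and bcl2fastq 2.20, and the build GRCm39. However, of 127971 transcripts shared with GENCODE M21, 98.6% lay inside their deposited locus on GRCm38, which is therefore the build of all positions. How strand was handled is not stated in the sources read. The deposited pairwise files hold fold changes and p-values of the authors' own comparisons and were not used. Counts were not analysed here.

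FPKM were summed by gene symbol, and symbols over 0.3 FPKM in any library were kept. A gene was higher or lower when its ratio to shCtrl was over or under 1 in both knockdown lines; log2 ratios have no pseudocount. limma 3.58.1 (R 4.3.3) compared shGR1 and shGR2 with shCtrl on log2(FPKM + 0.1), with an abundance trend, two-sided, and Benjamini-Hochberg adjustment over 15438 genes and a threshold of 0.05; the lone control is assumed to vary as the knockdown lines do. The code was tested on simulated data. Nothing says that the libraries came from separate cultures grown in parallel, so p-values measure only the spread between these libraries. Rough fragment counts came from the median FPKM × kb of the smallest values of 6185 single-transcript genes (0.0329, 0.0309 and 0.0298 per fragment), under a fixed limit shared by the libraries.

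The members and lists were chosen with earlier results of these data known. Named genes were the 8, their families and PPAR genes, Nr3c1, up to 3 lowest and 3 highest genes of each list with a mean of at least 1 FPKM moving alike in both lines, and 3 neighbours per gene. Genes named for an unadjusted p, and Lpl, Pck1, G6pc, Etfdh and Mir8114, were named after their values were seen. The same holds for Decr1 and Bdh2, and for Cidec in the lipid droplet list. Some genes that the rule names are not reported here. Alternatives were other FPKM limits, scalings, transcript choices, pseudocounts, moderation settings and leaving out each knockdown line.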

Additional observations from a re-analysis of the deposited data

How the results depend on the processing

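The main values were 2 of the 8 genes and 392 genes in all at least 2-fold higher in both lines, 565 at least 2-fold lower, and 0 called by limma. The 2-fold higher and lower counts were 176 and 343 over 1 FPKM, 1414 and 1817 with no filter, and 188 and 278 with protein-coding transcripts only, and they ranged from 713 to 824 and from 920 to 1072 when 1 knockdown line was left out. Of the 8 genes, 1 (Angptl4) was 2-fold higher over 1 FPKM, with the highest transcript only, and with transcripts weighted by length, the last chosen after seeing the data. Angptl4, at 0.390 FPKM in shCtrl, passed the 1 FPKM limit only through the knockdown libraries. Its place over that limit is therefore no independent check. limma called 66 genes higher and 155 lower after median centring, 53 and 110 with the length trend removed, 74 and 277 with protein-coding transcripts only, and 28 and 82 with robust moderation; the cause was not tested. The mean log2 ratio of Plin2 was 0.0085 after removing the length trend and 0.0046 for its highest transcript, against -0.06. Leaving out a line gave 4 higher and 4 lower of the 8 genes each time. That outcome was fixed in advance, since each of the 8 genes had the same direction in both lines. In the other lists, where a single line then decides, 48 to 52 genes were higher and 91 to 95 lower. The log2 ratios ranged from -0.87 to -0.70 for Acadm, 1.38 to 1.92 for Angptl4, 0.12 to 0.22 for Cpt1a, -0.59 to -0.50 for Glul, 0.29 to 0.80 for Lpin1, -0.80 to -0.31 for Pdk4 and 0.73 to 1.36 for Ppargc1a, which could not be tested over 1 FPKM. Adjusted p for Angptl4 ranged from 0.209 to 0.440. The list medians also moved when a line was left out, to 0.02 and 0.07 for the 8 genes, and from above to below 0 for the PPAR receptors and co-regulators without either line, the lipase system without either, and fatty acid synthesis without shGR1. Of 220 list counts under other settings, 194 stayed within 1.5 times. That limit does not show whether higher or lower genes were the more common, which turned for fatty acid synthesis with the medians centred. No paired analysis was possible because there is 1 control library.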
